A study of Xenopus tropicalis with 12 samples.

Results

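The comparison described here is that of thra mutant and wild type (WT) Xenopus tropicalis tadpole brain after both genotypes had been given thyroid hormone, and it sets 3 mutant T3 libraries against 3 WT T3 libraries, 6 of the 12 libraries of the study. The members were chosen by their labels alone. Both groups were kept for 16 h in 5 nM 3,5,3′-triiodothyronine (T3), so the values are the mRNA levels reached in hormone and not the fold over vehicle. The remaining 6 libraries, 3 mutant and 3 WT, came from tadpoles kept in the vehicle, dilute NaOH, and show what the genotypes looked like without added hormone. All tadpoles were at Nieuwkoop-Faber (NF) stage 54, and each library pooled the preoptic area, thalamus and hypothalamus, with the pituitary, of 5 tadpoles. The mutants were homozygous for a TALEN-made mutation in exon 4 of thra that truncates the receptor ahead of its DNA binding domain, and they came from crosses of heterozygous frogs of a line kept by another laboratory. WT frogs were purchased, and the methods do not state which crosses gave the WT tadpoles. If these were not siblings of the mutants, genotype and the origin of the animals cannot be told apart in these data. The genotype rests on the labels because thra was not paired with a feature and was not analysed here.

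Thyroid hormone receptors sit on DNA at their target genes whether or not hormone is present. Without hormone they recruit corepressors and hold many of these genes down, and with T3 they exchange corepressors for coactivators and turn the genes up. In frogs 2 receptor genes exist, thra, which is made in the brain before the thyroid becomes active, and thrb, which is itself a T3 target and is raised during metamorphosis. In tadpole brain the hormone drives cell proliferation, neuronal differentiation and remodelling.

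The libraries held 41012459 to 55717522 expected counts in WT T3 and 50211300 to 63136672 in mutant T3, in overlapping ranges. The spread among replicates, as edgeR's biological coefficient of variation, was 6.96% in WT T3, 10.8% in mutant T3, 14.8% in WT vehicle and 12.2% in mutant vehicle. WT vehicle replicate 3 stood apart from its group (chi-square per degree of freedom 31.9 and 42.0 against the other two, which differed from each other by 10.5). It enters no T3 comparison, but it shares in the estimate of the spread, and counts without it are given below. No pair of replicates agreed within sampling noise. On the first principal component, which held 38.5% of the variance, WT T3 lay at -19.8 to -14.4 and mutant T3 at -0.38 to 4.31. Markers of neurons summed to 1519 to 1559 CPM (counts scaled to a common library size with TMM factors) in WT T3. In mutant T3 they summed to 1450 to 1530 CPM. Markers of radial glia and progenitors summed to 2295 to 2429 and 2339 to 2369 CPM. These sums overlapped, but single markers in them moved apart, with ptprz1 lower (log2 fold change -0.44) and id4 higher (0.27) in mutant T3. All markers came from genes that the study called regulated by T3 in WT, so the sums do not gauge cell content.

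The genotypes differed widely in T3. Of 22018 features tested, 1515 (6.88%) passed an adjusted p of 0.05, of which 700 (3.18%) were lower in mutant T3 and 815 (3.7%) were higher. Here and throughout, a feature is an entry of the study's deposited counts. An adjusted p is the Benjamini-Hochberg value over all features from edgeR's quasi-likelihood test with n = 3 libraries a group. A fold change is mutant T3 over WT T3 on the log2 scale. The median log2 fold change was -0.46 among the lower features and 0.40 among the higher ones, so most differences were modest. A size over 0.5 was reached by 303 lower and 270 higher features, a size over 1 by 71 and 51, and a size over 2 by 21 and 10. In 1513 of the 1515 the WT and mutant libraries did not overlap. The call itself favours this with 3 libraries a group, and the share over all features was not counted, so it adds no support. The count of calls changed when a library was left out. It was 375, 738 and 293 without WT T3 replicate 1, 2 or 3, and 712, 661 and 523 without mutant T3 replicate 1, 2 or 3, while it was 2655 without WT vehicle replicate 3. Leaving out a T3 library makes 1 side of the comparison smaller, which by itself can cost calls, here and in the lists below. No call that these fits shared with the fit of all 12 libraries changed direction. A total of 242 features (136 lower and 106 higher) stayed called whichever library was left out.

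**Figure D1:**
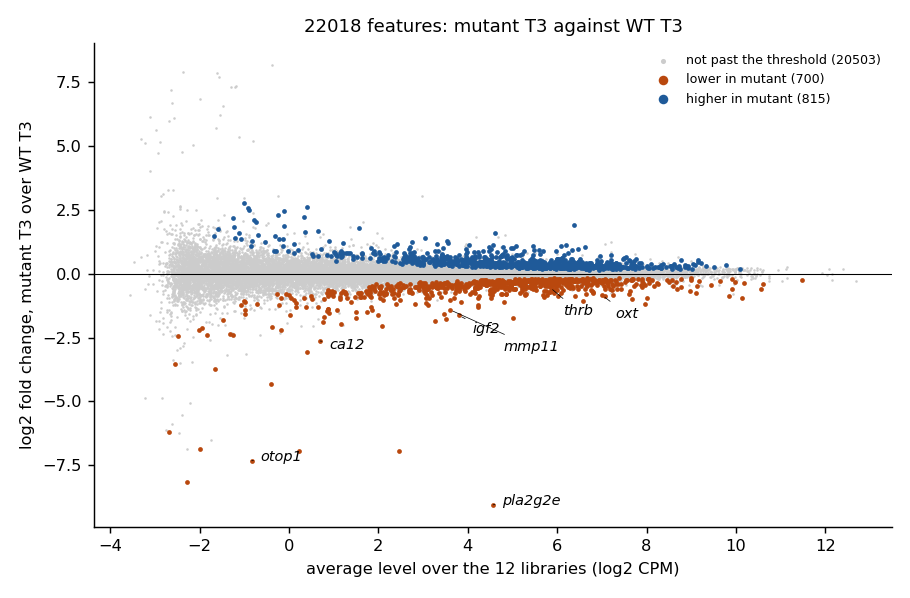
Each point is one of the 22018 features tested, placed by its average level over the 12 libraries (x, log2 CPM) and its log2 fold change of mutant T3 over WT T3 (y). The 700 features lower in mutant T3 and the 815 higher ones are coloured, and the few differences far below 0, pla2g2e among them, lie on the lower side.

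Gene symbols were at hand for 1504 of the tested features, and all of these came from the study's own table of genes regulated by T3 in WT, which was made from the same libraries. Of the 1504, 1391 (92.5%) were higher in WT T3 than in WT vehicle, so the part of that table at hand holds mainly induced genes. A lower level in mutant T3 is favoured by that choice, and 340 of the 1504 (22.6%) were lower against 38 (2.53%) that were higher. The median log2 fold change was -0.19 for features with a symbol and 0.01 for all features. Every gene list below was drawn from these symbols, so its counts are to be read beside 22.6% and 2.53% and are not independent evidence of a direction. The RNA came from whole tissue, and fewer cells of a type and less RNA per cell cannot be told apart.

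Some genes of the T3 pathway itself were lower in mutant T3. Of 16 features in this list, 5 (31.2%) were lower in mutant T3 and 2 were higher, beside 22.6% and 2.53% of all features with a symbol. The median log2 fold change was -0.21, close to the -0.19 of all features with a symbol. Of the 7 calls, 3 held whichever library was left out. The count of lower features was 3 to 4 when a T3 library was left out, 7 without WT vehicle replicate 3 and 5 to 7 without another vehicle library. The receptor gene thrb stood at 118, 100.3 and 116 CPM in WT T3 and at 80.9, 78.4 and 71.6 CPM in mutant T3. Every mutant library was below every WT library, yet the mutant still held 69.0% of the WT level (log2 fold change -0.54 ± 0.08 SE, edgeR adjusted p = 0.00307). In vehicle the order was the opposite, with means of 13.0 CPM in WT and 27.1 CPM in the mutant (log2 fold change 1.06, edgeR adjusted p = 0.000304).

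The thibz gene differed more. This gene, which encodes a basic leucine zipper protein induced by T3 in tadpoles, has 2 features between which reads may have been split. Feature XLOC_028082 was at 40.1, 26.8 and 37.6 CPM in WT T3 and at 11.7, 9.74 and 8.78 CPM in mutant T3. Replicate 2 was the lowest WT library and was still more than any mutant library, and the log2 fold change was -1.79 ± 0.19 SE (edgeR adjusted p = 0.000342). Feature XLOC_028061 was at 11.3, 15.4 and 13.6 CPM against 3.43, 2.71 and 3.63 CPM (log2 fold change -2.04, edgeR adjusted p = 0.0225). That second call was lost when any of the 6 T3 libraries was left out (edgeR adjusted p 0.0653 to 0.0901) and with DESeq2 (adjusted p = 0.315). The first call held in all 20 alternatives. In vehicle both features lay under 1 CPM in every library of either genotype.

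The mineralocorticoid receptor gene nr3c2 reached 50.8, 45.7 and 44.7 CPM in WT T3 and 30.7, 35.7 and 31.9 CPM in mutant T3 (log2 fold change -0.52 ± 0.08 SE, edgeR adjusted p = 0.00285). The higher pair of the list was small in size, with nr2f6, an orphan nuclear receptor, at a log2 fold change of 0.22 and tbl1xr1, a subunit of corepressor complexes, at 0.16. The call of nr2f6 was lost in 5 of the 6 fits that left out a T3 library, and that of tbl1xr1 in all 6.

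The transcription factor klf9 and the deiodinase dio3, both classical T3 targets, did not pass the threshold in the fit of all 12 libraries, although their groups did not overlap. The level of klf9 was 334, 315 and 345 CPM in WT T3 and 221, 184 and 186 CPM in mutant T3 (log2 fold change -0.75 ± 0.22 SE, edgeR adjusted p = 0.0618). It passed with limma-voom (adjusted p = 0.0239), in an edgeR fit of the 6 T3 libraries alone (adjusted p = 0.000730) and without WT vehicle replicate 3 (adjusted p = 0.000364). That library held 10.6 CPM of klf9 where the next lowest WT vehicle library held 25.1 CPM. The level of dio3, whose product inactivates T3, was 11.0, 9.69 and 11.9 CPM against 7.58, 7.70 and 7.16 CPM (log2 fold change -0.54 ± 0.16 SE, edgeR adjusted p = 0.0671). It passed with DESeq2 (adjusted p = 0.0194), limma-voom (0.0301), in an edgeR fit of the 6 T3 libraries alone (0.00844), without WT vehicle replicate 1 (0.0444) and without mutant vehicle replicate 2 (0.0408). For pim3, a kinase gene, the groups overlapped at 67.8 ± 0.777 and 68.1 ± 4.49 CPM (SD, n = 3, edgeR adjusted p = 0.971). For traf3, an adaptor of cytokine receptors, the mutant T3 mean of 32.0 ± 1.81 CPM against 38.1 ± 2.41 CPM in WT T3 did not pass either (edgeR adjusted p = 0.0984). The difference of traf3 passed with DESeq2 (adjusted p = 0.0483) and in an edgeR fit of the 6 T3 libraries alone (adjusted p = 0.0321).

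**Figure D2:**
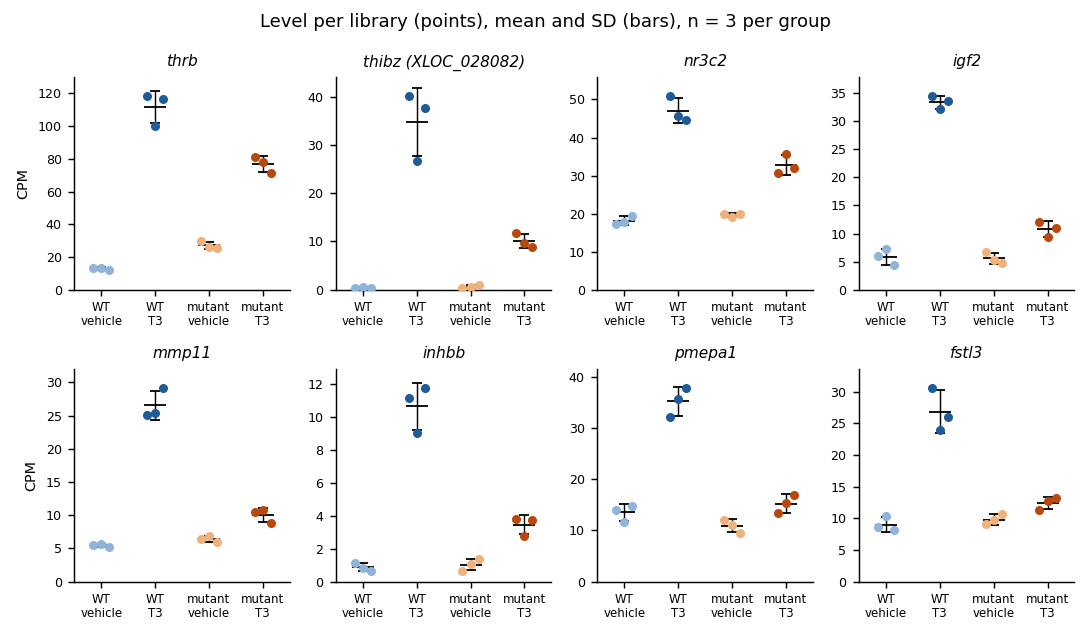
Level in CPM (y, from 0) of 8 genes in each library of the 4 groups, with the mean and SD of 3 libraries. In all 8 panels the 3 mutant T3 libraries lie below the 3 WT T3 libraries. For thrb, thibz, nr3c2 and igf2 they also lie above both vehicle groups, and for mmp11 above both vehicle means.

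The growth factor igf2 was at 34.4, 32.1 and 33.6 CPM in WT T3 and at 12.1, 9.32 and 11.0 CPM in mutant T3, so the mutant reached 32.3% of the WT level (log2 fold change -1.63 ± 0.16 SE, edgeR adjusted p = 0.000281). The vehicle means of igf2 were 5.86 and 5.60 CPM. In the list of growth factor signalling 4 of 18 features (22.2%) were lower and 1 was higher, with a median log2 fold change of -0.13, which is no larger a share than the 22.6% of all features with a symbol. The count of lower features was 2 to 3 when a T3 library was left out. The adaptor irs1, which couples insulin and IGF receptors to their kinases, had 118, 111 and 119.7 CPM in WT T3 and 84.7, 81.5 and 80.2 CPM in mutant T3 (log2 fold change -0.50 ± 0.07 SE, edgeR adjusted p = 0.00196). The kinase gene akt1 and the adaptor gab1 were lower by less, at log2 fold changes of -0.28 and -0.27, and these calls were lost in 6 and 4 of the 6 fits that left out a T3 library.

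The IGF receptor gene igf1r was the member that was higher. It stood at 21.5, 25.8 and 23.3 CPM in WT T3 and at 31.3, 30.8 and 31.7 CPM in mutant T3, with no overlap (log2 fold change 0.41 ± 0.08 SE, edgeR adjusted p = 0.0151). That call was lost without WT T3 replicate 1 (edgeR adjusted p = 0.0760), WT T3 replicate 3 (0.0693) or mutant T3 replicate 3 (0.0543). In vehicle the means were 19.6 and 25.1 CPM, a log2 fold change of 0.35 that did not pass (edgeR adjusted p = 0.0903).

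In the list of TGF-beta and Wnt signalling 6 of 18 features (33.3%) were lower and none was higher. The shares over all features with a symbol were 22.6% and 2.53%. The count of lower features was 3 to 6 when a T3 library was left out and 8 without WT vehicle replicate 3. The activin subunit gene inhbb was at 11.2, 9.03 and 11.7 CPM in WT T3 and at 3.83, 2.78 and 3.74 CPM in mutant T3 (log2 fold change -1.63 ± 0.22 SE, edgeR adjusted p = 0.00205). The activin antagonist fstl3 was at 30.5, 23.9 and 26.0 CPM against 11.4, 12.7 and 13.1 CPM (log2 fold change -1.11 ± 0.12 SE, edgeR adjusted p = 0.000342). A ligand subunit and an antagonist of the same family were thus both lower. The same held for pmepa1, whose product damps SMAD signalling, at 32.1, 35.7 and 37.7 CPM against 13.3, 15.3 and 17.0 CPM (log2 fold change -1.21 ± 0.12 SE, edgeR adjusted p = 0.000281). The inhibitory SMAD gene smad6 differed less, at a log2 fold change of -0.39, and that call was lost without WT T3 replicate 3 (edgeR adjusted p = 0.0583).

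Of 21 features of extracellular matrix remodelling 7 (33.3%) were lower and none was higher, beside 22.6% and 2.53% of all features with a symbol. The median log2 fold change of -0.20 was close to the -0.19 of all features with a symbol, and 5 of the 7 stayed called whichever library was left out. The matrix metalloproteinase gene mmp11, known from frog metamorphosis, was at 25.1, 25.4 and 29.1 CPM in WT T3 and at 10.5, 10.7 and 8.80 CPM in mutant T3 (log2 fold change -1.41 ± 0.10 SE, edgeR adjusted p = 1.56e-05). Its vehicle means were 5.44 and 6.41 CPM. The metalloproteinase adamts7 was at 49.4, 41.0 and 46.0 CPM against 19.6, 20.1 and 23.6 CPM (log2 fold change -1.11 ± 0.16 SE, edgeR adjusted p = 0.00273). The basement membrane gene frem3 was at 9.74 ± 0.796 CPM against 4.30 ± 0.650 CPM (SD, n = 3), a log2 fold change of -1.18. The matricellular gene wisp1 was at 2.51 ± 0.0554 CPM against 1.02 ± 0.0734 CPM and olfml2b at 19.5, 20.3 and 20.3 CPM against 12.7, 12.8 and 13.1 CPM, and the groups did not overlap for either.

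Genes of protein folding in the cytosol were lower in mutant T3 more often than not. Among cytosolic chaperones and their helpers 10 of 19 features (52.6%) were lower, beside 22.6% of all features with a symbol, all 19 had a log2 fold change below 0, and the median was -0.35. That count was 2 to 6 when a T3 library was left out and 16 without WT vehicle replicate 3. The HSP70 partner gene dnaja1 was at 117, 132 and 134 CPM in WT T3 and at 90.7, 85.2 and 79.2 CPM in mutant T3 (log2 fold change -0.58 ± 0.09 SE, edgeR adjusted p = 0.00328). The HSP90 activator gene ahsa1 was at 44.8, 44.7 and 45.9 CPM against 28.6, 31.7 and 29.1 CPM (log2 fold change -0.60 ± 0.10 SE, edgeR adjusted p = 0.00771). The calls of dnaja1 and ahsa1 held in all 20 alternatives. That of tcp1, a subunit of the chaperonin that folds actin and tubulin, at a log2 fold change of -0.44, was lost when any T3 library was left out. The libraries of the HSP40 gene dnajb1 lay nearer to each other, with 73.4, 81.9 and 80.4 CPM against 68.1, 58.7 and 60.4 CPM. That call was lost without WT T3 replicate 3 (edgeR adjusted p = 0.0632) or mutant T3 replicate 3 (0.0526).

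In the ribosome biogenesis list 8 of 71 features were lower and none was higher, which is a smaller share than the 22.6% of all features with a symbol. All 71 log2 fold changes were below 0 with a median of -0.22, against -0.19 over all features with a symbol. The count was 0 to 1 when a T3 library was left out, 16 without WT vehicle replicate 3 and 4 to 21 without another vehicle library. It was 20 with DESeq2 and 34 in a fit of the 6 T3 libraries alone, so which members passed was not stable. Among the 8 was mrto4, a ribosome assembly factor, at 26.4, 30.9 and 34.9 CPM in WT T3 and 20.2, 21.7 and 21.2 CPM in mutant T3 (edgeR adjusted p = 0.0291), a call lost in 5 of the 6 fits that left out a T3 library. None of 14 RNA polymerase subunits passed, and 14 of 14 were below 0, while 5 passed in a fit of the 6 T3 libraries alone and 2 with DESeq2. Of 23 translation factors 3 (13.0%) were lower, eif4a1, eif4g3 and eif2b3. That count was 0 to 2 when a T3 library was left out, 6 without WT vehicle replicate 3 and with DESeq2, and 8 in a fit of the 6 T3 libraries alone. The call of eif2b3 was lost in all 6 fits that left out a T3 library and that of eif4g3 in 4. The helicase eif4a1, which unwinds mRNA for the ribosome, was at 551, 511 and 579 CPM against 335, 389 and 366 CPM (log2 fold change -0.59 ± 0.12 SE, edgeR adjusted p = 0.0168). The call of eif4a1 was lost without WT T3 replicate 1 (edgeR adjusted p = 0.0638) or 3 (0.0795) and without mutant T3 replicate 1 (0.0624) or 3 (0.0562). The vehicle means of eif4a1 were 360.2 CPM in WT and 360.3 CPM in the mutant.

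Folding and secretion in the endoplasmic reticulum gave 4 lower features of 31 (12.9%). The proteasome gave 2 of 12 (16.7%) and the mitochondrial ribosome and protein import 6 of 23 (26.1%). The share over all features with a symbol was 22.6%. The medians of the 3 lists were -0.21, -0.23 and -0.29, and none of their features was higher. Without a T3 library these counts were 0 to 2, 0 to 1 and 0 to 3, and without WT vehicle replicate 3 they were 18, 8 and 9. The secreted survival factor manf was at 26.7, 35.5 and 36.0 CPM in WT T3 and at 18.6, 15.3 and 17.2 CPM in mutant T3. The log2 fold change of manf was -0.94 ± 0.20 SE (edgeR adjusted p = 0.0195), and its call was lost without WT T3 replicate 2 (0.0590) or 3 (0.0870) and without mutant T3 replicate 2 (0.0684) or 3 (0.0625).

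**Figure D3:**
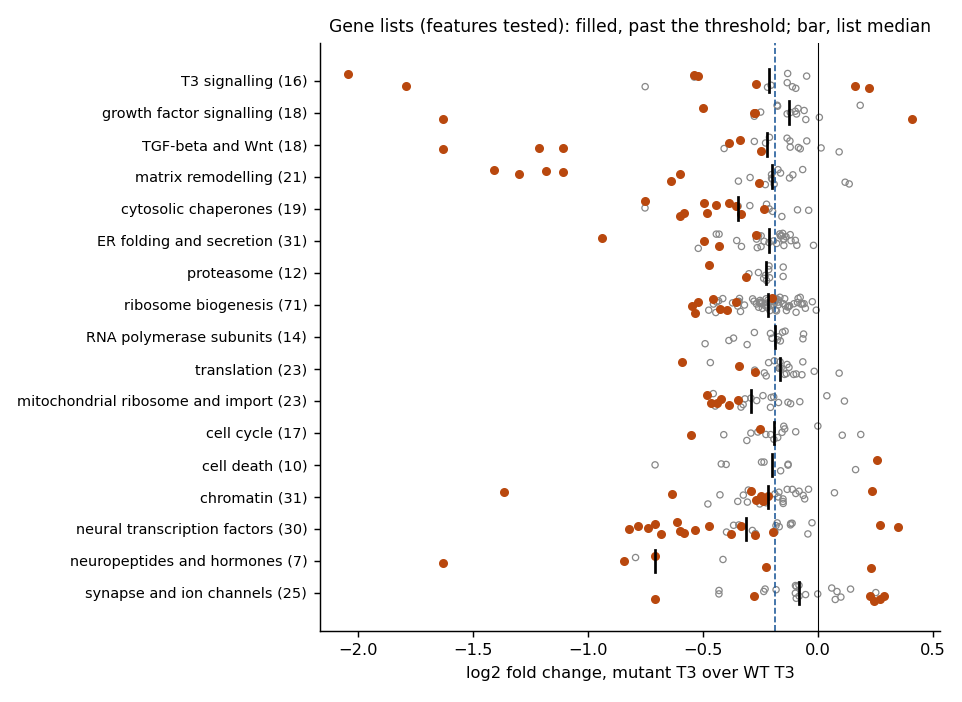
Log2 fold change of mutant T3 over WT T3 (x) of every tested feature of 17 gene lists (rows, number of features in parentheses). Filled points passed the threshold, open points did not, the bar is the median of the list and the dashed line is the median of -0.19 over all features with a symbol. Most list medians lie near that line, and those of the chaperone, mitochondrial, neural transcription factor and neuropeptide lists, -0.29 or lower, are the farthest to its left.

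Of 17 features of the cell cycle 2 (11.8%) were lower, mycl1 and plk3, and none was higher, with a median log2 fold change of -0.19. The lower share was smaller than the 22.6% of all features with a symbol. The count was 1 to 2 when a T3 library was left out, 4 without WT vehicle replicate 3 and with DESeq2, and 9 in a fit of the 6 T3 libraries alone. The call of plk3 was lost in 5 of the 6 fits that left out a T3 library (edgeR adjusted p 0.0695 to 0.108). The MYC family gene mycl1 was at 53.8, 56.7 and 53.7 CPM in WT T3 and at 37.5, 35.9 and 38.6 CPM in mutant T3 (log2 fold change -0.55 ± 0.11 SE, edgeR adjusted p = 0.0113). The cyclin gene ccnj was at 35.6, 34.2 and 35.3 CPM against 30.6, 28.4 and 30.8 CPM, the kinase gene cdk8 at 16.7 ± 2.11 CPM against 13.5 ± 1.19 CPM and the repressor e2f6 at 49.1 ± 1.04 CPM against 44.4 ± 1.39 CPM. None of these 3 passed (edgeR adjusted p = 0.135, 0.109 and 0.173), although their groups did not overlap. The kinase genes cdk11b and cdk13, at log2 fold changes of -0.16 and -0.17, did not pass either (edgeR adjusted p = 0.226 and 0.0885). In an edgeR fit of the 6 T3 libraries alone ccnj (adjusted p = 0.0255), cdk11b (0.0378) and cdk13 (0.0261) passed. Without WT vehicle replicate 3 ccnj (edgeR adjusted p = 0.0495) and cdk13 (0.0444) passed, and cdk13 passed with DESeq2 (adjusted p = 0.0481). Of 10 features of cell death none was lower and 1 was higher, ppp1r13b, whose product binds p53, at 97.9 ± 3.27 CPM against 117 ± 5.91 CPM (edgeR adjusted p = 0.0444); that call was lost when any of the 6 T3 libraries was left out.

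More of the listed transcription factors of developing neurons were lower in mutant T3 than were higher. The list was chosen with earlier results of these data known, so its share is not independent evidence. Of 30 features 14 (46.7%) were lower in mutant T3 and 2 were higher, beside 22.6% and 2.53% of all features with a symbol. The median log2 fold change was -0.31. The count of lower features was 5 to 9 when a T3 library was left out and 6 of all 16 calls held in each of these fits. The nuclear factor I genes, which time the differentiation of neural progenitors, were all 3 lower. For nfic the libraries held 116, 99.1 and 106 CPM in WT T3 and 66.2, 68.2 and 66.2 CPM in mutant T3 (log2 fold change -0.68 ± 0.07 SE, edgeR adjusted p = 0.000511). For nfib they held 248, 205 and 222 CPM against 119, 125 and 137 CPM (log2 fold change -0.82 ± 0.14 SE, edgeR adjusted p = 0.00765). For nfia the means were 78.6 ± 6.15 and 51.9 ± 3.48 CPM, and that call was lost when any of the 6 T3 libraries was left out (edgeR adjusted p up to 0.116). The mutant T3 mean of nfib, 127 CPM, was close to the vehicle means of 124 CPM in WT and 129.5 CPM in the mutant, while nfic was above both vehicle means of 23.1 and 40.1 CPM.

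The neuronal differentiation genes neurod2 and neurod6 were lower too. The level of neurod2 was 30.0, 27.4 and 28.5 CPM in WT T3 and 17.2, 15.3 and 17.5 CPM in mutant T3 (log2 fold change -0.78 ± 0.11 SE, edgeR adjusted p = 0.00267). The level of neurod6 was 28.8, 24.5 and 28.3 CPM against 16.6, 17.6 and 19.0 CPM (log2 fold change -0.61 ± 0.09 SE, edgeR adjusted p = 0.00284). In vehicle the mutant means were 25.0 and 25.1 CPM and the WT means 20.6 and 21.1 CPM, so the mutant T3 mean was the lowest of the 4 group means for both genes. The SOX factor sox4, which acts in immature neurons, was at 705, 664 and 693 CPM in WT T3 and at 454, 506 and 526 CPM in mutant T3 (log2 fold change -0.47 ± 0.08 SE, edgeR adjusted p = 0.00765).

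The 2 neural factors that were higher were etv1 and id4. The ETS factor etv1 was at 80.4, 75.8 and 70.9 CPM in WT T3 and at 95.2, 95.3 and 98.3 CPM in mutant T3 (log2 fold change 0.35 ± 0.06 SE, edgeR adjusted p = 0.00484). The inhibitor of differentiation id4, which is abundant in radial glia, was at 656, 640.5 and 625 CPM against 789.9, 806 and 718 CPM (log2 fold change 0.27 ± 0.06 SE, edgeR adjusted p = 0.0276). The call of id4 was lost without any WT T3 library (edgeR adjusted p 0.0714 to 0.114) and without mutant T3 replicate 1 (0.0840) or 2 (0.0984). Among the other markers of radial glia ptprz1 was lower at 842 ± 23.5 against 620.0 ± 8.66 CPM, a call lost when any T3 library was left out, and slc1a3 and prom1 did not pass. With DESeq2 slc1a3 passed as higher (adjusted p = 0.0426) and prom1 as lower (adjusted p = 0.0244). In an edgeR fit of the 6 T3 libraries alone prom1 also passed (adjusted p = 0.0289).

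**Figure D4:**
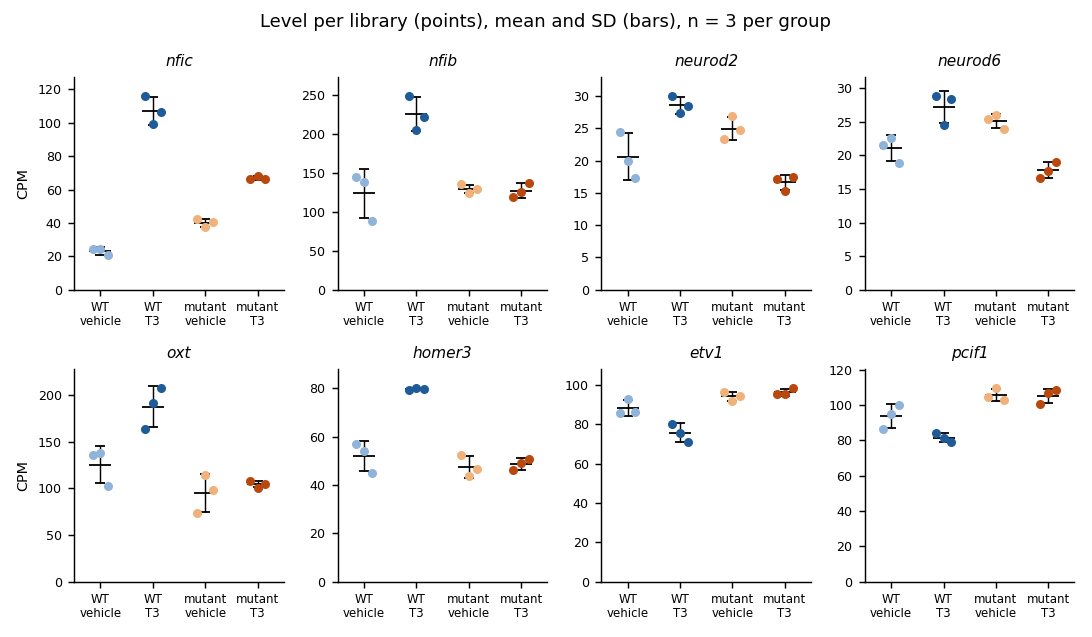
Level in CPM (y, from 0) of 8 genes in each library of the 4 groups, with the mean and SD of 3 libraries. The first 6 genes, nfic to homer3, are lower in all 3 mutant T3 libraries than in all 3 WT T3 libraries, and the last 2, etv1 and pcif1, are higher in all 3.

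The list of neuropeptides and hormones, which also holds receptor genes such as brs3 and prlr, gave 4 lower features (57.1%) and 1 higher of 7. The shares over all features with a symbol were 22.6% and 2.53%. Among the 4 was inhbb, which is counted in the TGF-beta and Wnt list as well. The peptide hormone gene oxt, made by neurosecretory cells of the hypothalamus, was at 164, 192 and 207 CPM in WT T3 and at 108, 101 and 105 CPM in mutant T3 (log2 fold change -0.84 ± 0.14 SE, edgeR adjusted p = 0.00708). Its vehicle means were 126 CPM in WT and 95.4 CPM in the mutant, a log2 fold change of -0.40 that did not pass (edgeR adjusted p = 0.269). The related gene avp was at 76.9, 80.0 and 75.8 CPM against 61.7, 59.6 and 53.5 CPM and did not pass (edgeR adjusted p = 0.163). Nor did sim1, a factor of the same neurosecretory cells, at 10.3 ± 0.668 against 8.10 ± 0.450 CPM (edgeR adjusted p = 0.0751). In an edgeR fit of the 6 T3 libraries alone both passed (adjusted p = 0.0033 for avp and 0.0308 for sim1). Without mutant vehicle replicate 1 avp passed (edgeR adjusted p = 0.0472). Without mutant vehicle replicate 2 (edgeR adjusted p = 0.0482) and with DESeq2 (adjusted p = 0.0333) sim1 passed. The summed level of these 3 neurosecretory markers was 251 to 294 CPM in WT T3, 167 to 177 CPM in mutant T3, 158 to 207 CPM in WT vehicle and 117 to 194 CPM in mutant vehicle. Most of that sum was oxt itself, so the sum cannot gauge these cells apart from oxt. The part of cell content in the difference of oxt was not tested. The bombesin-type receptor gene brs3 was at 12.3, 9.67 and 9.57 CPM in WT T3 and at 6.95, 6.01 and 6.37 CPM in mutant T3 (edgeR adjusted p = 0.0102), and that call was lost by a little without WT T3 replicate 1 (0.0502). The prolactin receptor gene prlr was the higher member, at 83.4 ± 3.96 against 97.9 ± 2.67 CPM (edgeR adjusted p = 0.0302), a call that was lost without WT T3 replicate 1 (0.122) or 3 (0.129) and without any mutant T3 library (0.0613 to 0.0921).

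Genes of the synapse and of ion channels moved in both directions. Of 25 features 2 (8%) were lower and 4 were higher, beside 22.6% and 2.53% of all features with a symbol. This list thus held 4 of the 38 features with a symbol that were higher. The postsynaptic scaffold gene homer3 was at 79.4, 80.0 and 79.8 CPM in WT T3 and at 46.2, 49.3 and 50.8 CPM in mutant T3 (log2 fold change -0.71 ± 0.09 SE, edgeR adjusted p = 0.00106). The calcium sensor vsnl1 was higher, at 380.4, 360.2 and 357 CPM against 448, 456 and 433 CPM (log2 fold change 0.29 ± 0.05 SE, edgeR adjusted p = 0.0101), and lost its call without WT T3 replicate 3 (0.0579). The postsynaptic scaffold dlgap2, the transporter slc6a17 and the glycine receptor subunit glra2 were higher at log2 fold changes of 0.27, 0.24 and 0.23. Each of these 3 calls was lost when any of the 6 T3 libraries was left out, and the higher count of the list was then 0 to 1. The neuronal markers snap25 and stx1a did not pass (log2 fold changes 0.08 and 0.10), and elavl3 was lower at a log2 fold change of -0.26 (edgeR adjusted p = 0.0426), a call lost when any T3 library was left out.

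Among 31 features of chromatin genes 7 (22.6%) were lower and 1 was higher. The lower share was no larger than the 22.6% of all features with a symbol. The count of lower features was 2 to 6 when a T3 library was left out and 14 without WT vehicle replicate 3, and 2 of the 8 calls held whichever library was left out. The corepressor gene rcor2, a partner of the demethylase LSD1, was at 217, 207 and 221 CPM in WT T3 and at 129, 132 and 155 CPM in mutant T3 (log2 fold change -0.63 ± 0.10 SE, edgeR adjusted p = 0.00476). The histone methyltransferase gene whsc1 was at 2.58, 4.24 and 3.41 CPM against 1.64, 1.25 and 1.08 CPM (log2 fold change -1.37 ± 0.25 SE, edgeR adjusted p = 0.00903). For tet2, which oxidises methylated cytosine, the difference was small, at 169 ± 1.77 against 142 ± 2.36 CPM, and its call was lost without WT T3 replicate 1 (edgeR adjusted p = 0.0518) or 3 (0.0648).

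Few features with a symbol were higher in mutant T3, and their differences were small. After igf1r the highest log2 fold change was 0.37 ± 0.06 SE for pcif1, an enzyme that methylates the cap of mRNA, at 84.3, 81.1 and 79.2 CPM in WT T3 and 101, 107 and 108 CPM in mutant T3 (edgeR adjusted p = 0.00484). The glycolytic regulator pfkfb4 was at 55.5, 53.8 and 52.8 CPM against 68.8, 66.2 and 66.3 CPM (log2 fold change 0.31 ± 0.05 SE, edgeR adjusted p = 0.00484). The calls of pcif1, etv1 and pfkfb4 held in all 20 alternatives. Those of srsf4, nrg3, tmem132c and tmem8a, at log2 fold changes of 0.26 to 0.27, were each lost in 5 or 6 of the 6 fits that left out a T3 library. Larger differences in this direction were found among features with no symbol. The feature XLOC_029072 was at 23.3, 27.1 and 21.0 CPM in WT T3 and at 82.7, 77.8 and 102 CPM in mutant T3 (log2 fold change 1.88 ± 0.13 SE, edgeR adjusted p = 1.56e-05), with vehicle means of 103 and 120.2 CPM. The feature XLOC_035879 was at 20.4, 19.4 and 20.1 CPM against 48.9, 38.3 and 38.8 CPM (log2 fold change 1.07 ± 0.10 SE, edgeR adjusted p = 0.000135), with vehicle means of 37.2 and 35.8 CPM.

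The genes furthest below their WT level in mutant T3 included some that were close to absent there, pla2g2e, otop1 and the feature XLOC_030373. The secreted phospholipase gene pla2g2e was at 74.6, 109 and 99.1 CPM in WT T3 and at 0.217, 0.176 and 0.143 CPM in mutant T3, from 3506, 4464 and 5558 counts against 11, 10 and 9 (log2 fold change -9.04 ± 0.46 SE, edgeR adjusted p = 1.16e-06). In vehicle it lay at 0.401 to 0.438 CPM in WT and at 0.134 to 1.39 CPM in the mutant. The gene otop1, which encodes a proton channel needed for otoliths, had 73, 122 and 127 counts in WT T3 and 2, 0 and 0 counts in mutant T3 (edgeR adjusted p = 0.000304). The carbonic anhydrase gene ca12 was at 3.30, 4.41 and 5.69 CPM against 0.770, 0.668 and 0.716 CPM (log2 fold change -2.64 ± 0.25 SE, edgeR adjusted p = 0.000197). The zinc transporter slc30a8 was at 1.49, 2.07 and 2.37 CPM against 0.632, 0.439 and 0.223 CPM (log2 fold change -2.21 ± 0.34 SE, edgeR adjusted p = 0.00339). The feature XLOC_030373, which has no symbol, was at 3.75, 4.94 and 5.21 CPM against 0.0197, 0.0352 and 0.0477 CPM (edgeR adjusted p = 6.23e-05). A further feature without a symbol, XLOC_039985, was lower from a higher level, at 39.3, 38.0 and 35.2 CPM against 17.1, 15.4 and 12.5 CPM (log2 fold change -1.32 ± 0.11 SE).

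Some markers of other cell types that a dissection of this region can hold were lower too, and others did not pass. These markers were drawn from the features with a symbol, of which 22.6% were lower. Of 3 inner ear markers 2 were lower, otop1 and tecta.2, while ush1g was at overlapping levels, and their summed level was 22.0 to 23.9 CPM in WT T3 and 16.4 to 20.1 CPM in mutant T3. The tectorin gene tecta.2 was at 2.72, 0.974 and 1.12 CPM against 0.178, 0.228 and 0.700 CPM (edgeR adjusted p = 0.0251), and that call was lost without WT T3 replicate 1 (0.128) or 3 (0.0551) and without mutant T3 replicate 1 (0.0813) or 2 (0.0853). Of 3 epithelial markers 2 were lower. The sodium channel subunit scnn1a was at 5.02, 5.62 and 4.96 CPM in WT T3 and at 1.60, 1.34 and 1.03 CPM in mutant T3 (log2 fold change -1.98 ± 0.22 SE, edgeR adjusted p = 0.000472). The tight junction gene cldn3 was at 3.41, 3.24 and 3.03 CPM against 1.30, 1.09 and 1.35 CPM (log2 fold change -1.37 ± 0.23 SE, edgeR adjusted p = 0.00658), and epcam at 9.96 ± 0.418 against 6.67 ± 2.19 CPM did not pass. The difference of epcam passed with DESeq2 (adjusted p = 0.0381) and without mutant T3 replicate 3 (edgeR adjusted p = 0.0306). The summed epithelial level was 17.5 to 19.1 CPM in WT T3, 7.08 to 11.4 CPM in mutant T3, 7.18 to 10.05 CPM in WT vehicle and 6.38 to 7.71 CPM in mutant vehicle. Of 4 immune markers 1 was lower, tap1, with sums of 40.6 to 48.4 CPM against 30.1 to 35.1 CPM, and neither of 2 muscle markers passed, with sums of 20.4 to 24.2 CPM against 15.9 to 16.9 CPM. With DESeq2 the muscle marker cnn1 (adjusted p = 0.0111) and the immune markers cd37 (0.0286) and ifih1 (0.0105) passed as lower. They also passed in an edgeR fit of the 6 T3 libraries alone (adjusted p = 0.0194, 0.0288 and 0.0441). The part of such cells in the differences of pla2g2e, otop1, ca12 and the other genes of this set was not tested.

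The vehicle libraries show which genotype differences were called without added hormone. In vehicle 127 features (0.577%) passed, 91 (0.413%) lower and 36 (0.164%) higher in the mutant, against 1515 in T3. These comparisons share no library. Their counts do not measure amounts of difference. Replicates spread more in vehicle (14.8% in WT and 12.2% in the mutant) than in T3 (6.96% and 10.8%), yet the fit shared 1 estimate of the spread over all 4 groups. With fits of the 6 libraries of each comparison alone the counts were 28 in vehicle and 3134 in T3. Over all features the median size of the log2 fold change was 0.120 in vehicle and 0.165 in T3. Of the features called in T3, 36 lower and 13 higher ones were also called in the same direction in vehicle, which is 5.14% and 1.60% of the T3 lists and 39.6% and 36.1% of the vehicle lists. The log2 fold change in vehicle had the same sign for 423 of the 700 lower features (60.4%) and for 611 of the 815 higher ones (75.0%), with medians in vehicle of -0.05 and 0.09. The vehicle count was 45, 41 and 504 without WT vehicle replicate 1, 2 or 3 and 33, 47 and 65 without mutant vehicle replicate 1, 2 or 3. The difference between the genotype difference in T3 and that in vehicle passed for 116 features (0.527%), 97 of which were called in T3, so for most of the 1515 features it was not shown that the genotype difference itself changed with hormone. That count was 42, 54 and 38 without WT T3 replicate 1, 2 or 3, 71 and 59 without mutant T3 replicate 2 or 3, 69 without WT vehicle replicate 2 and 62 without mutant vehicle replicate 1.

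**Figure D5:**
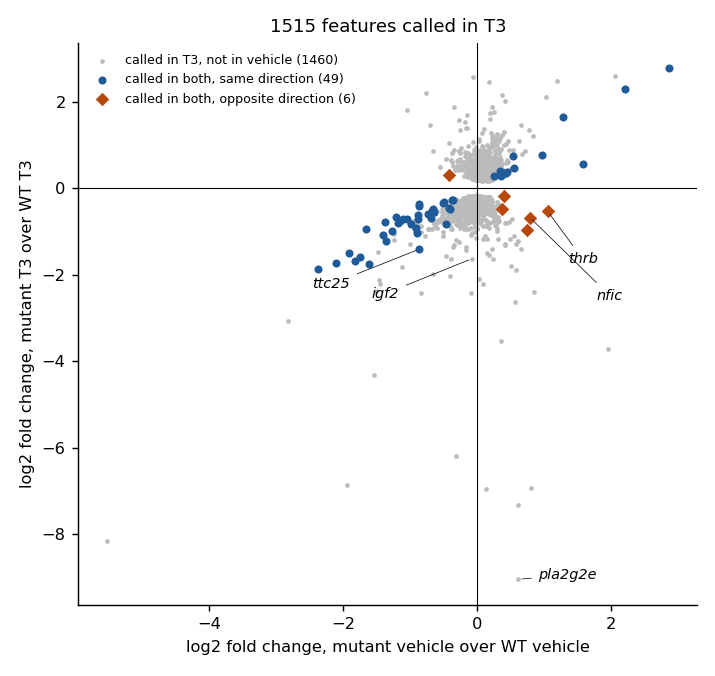
Log2 fold change of mutant over WT in vehicle (x) and in T3 (y) for the 1515 features called in T3. Most points lie near 0 on the vehicle axis, 49 were called in both with the same direction, and 6, thrb and nfic among them, were called in both with opposite directions.

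Of the 49 features that were called in both conditions in the same direction, 4 had a symbol, and 3 of these are described here. The ciliary gene ttc25 was at 5.24, 6.21 and 5.87 CPM in WT T3 and at 2.35, 2.34 and 1.83 CPM in mutant T3 (log2 fold change -1.41 ± 0.14 SE, edgeR adjusted p = 0.000281), and at means of 4.19 and 2.32 CPM in vehicle (edgeR adjusted p = 0.0165). The gene dbndd1 was at 70.9 ± 6.12 against 40.1 ± 1.38 CPM in T3 and at means of 54.5 and 39.7 CPM in vehicle. The mitochondrial calcium-binding protein gene efhd1 was at 48.6 ± 1.44 against 34.7 ± 2.28 CPM in T3 and at means of 42.5 and 32.1 CPM in vehicle.

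For 6 features the genotypes were called in both conditions in opposite directions. Of these, 5 were higher in the mutant in vehicle and lower in T3, namely thrb, nfic, cidea and the features XLOC_014132 and XLOC_021848, and 1, XLOC_044169, went the other way; cidea and the 3 features were named after their values were seen. The test of the difference passed for all 6. The gene cidea, which acts in lipid droplet fusion in mammals, had vehicle means of 30.8 and 40.2 CPM and was at 66.4, 60.7 and 64.4 CPM in WT T3 against 48.1, 46.1 and 43.4 CPM in mutant T3 (log2 fold change -0.48 ± 0.06 SE, edgeR adjusted p = 0.00154). The feature XLOC_014132 had vehicle means of 362 and 608 CPM and reached 2474, 2063 and 2411 CPM in WT T3 but 1115, 1300.0 and 1142 CPM in mutant T3 (log2 fold change -0.97 ± 0.13 SE, edgeR adjusted p = 0.00154). For all 6 features the libraries of the genotypes did not overlap in either condition. Being called in both conditions favours this with 3 libraries a group, so it adds no support.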

How the data were processed

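RNA was sequenced as 50 nt single-end reads from 12 libraries in 4 groups of 3, each library a pool of 5 tadpoles. Per the labels and methods, the authors called bases with CASAVA 1.8.2 and trimmed reads with cutadapt. They aligned and quantified the reads with Bowtie and RSEM against the v4.1 genome and a custom model of 22820 genes. The deposited values cover 33875 features, 22820 with XLOC identifiers and 11055 whose identifiers start with new_exon. Versions of cutadapt, Bowtie and RSEM were not stated. The values per feature that the authors deposited are RSEM expected counts, in which reads shared by similar features are divided between them, and TPM values scaled by RSEM for length. The TPM values served no comparison. The vehicle is dilute NaOH in the methods and DMSO in the design text.

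Expected counts were rounded and features with low counts removed with filterByExpr, which left 22018. They were fitted with edgeR 4.0.16 (R 4.3.3), with TMM library sizes, the quasi-likelihood test and Benjamini-Hochberg adjustment over all features, at a threshold of 0.05. The 12 libraries were fitted together as 4 groups, so that vehicle libraries share in the spread. Alternatives were limma-voom (limma 3.58.1), DESeq2 1.42.0, median-of-ratios size factors, libraries thinned to equal depth, no filter, a fit of the 6 libraries of a contrast, a replicate block, new exons left out, a log2 fold change over 0.5 in size, and each library left out in turn. For single genes 20 of these apply. The main fit was also tried on simulated counts. Each feature was given its mean fitted level over the 12 libraries and 1 spread for all 4 groups. The groups of the study differed in spread, so recovery there can differ. Of 200 features given a log2 fold change of 1 in size in mutant T3, 134 (67%) were recovered in the T3 contrast. There were 12 false calls. The test of the difference recovered 111 (55.5%). At depths of 41012459 to 67603703 expected counts a library, precision was limited by the spread between libraries more than by counting. Features with few counts in a group, such as pla2g2e, otop1 and XLOC_030373 in mutant T3, are exceptions. The p-values measure the spread between pools of tadpoles.

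Symbols came from the part at hand of the study's table of genes that it called regulated by T3 in WT on these libraries. The other columns of that table, its fold changes and p-values, were not used. No table paired the features with coordinates or sequences, and none is given. Features with more than 1 symbol, 39 in all, stayed out of the gene lists. Named genes were those the study measured in brain, the 12 lowest and 12 highest log2 fold changes among called features with 1 symbol and groups that do not overlap, up to 4 members of each list by p, 2 features without a symbol in each direction, up to 6 features with 1 symbol called in vehicle and T3 in the same direction, and all cell type markers. Some further members of lists are named with their values. Of 26 symbols the study measured, 11 were not paired with a feature and were not analysed here. Results of 2 called genes are counted in the lists but not reported here. The members and lists were chosen with earlier results of these data known. Figures were drawn with matplotlib 3.10.9.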

Additional observations from a re-analysis of the deposited data

Results flagged for a closer look

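For 28 of the features that the naming rule chose the genotype difference in T3 differed from that in vehicle by the interaction test of edgeR's quasi-likelihood fit, beside cidea and 3 features without a symbol that were named after their values were seen. Many were chosen by their values in the T3 contrast, which is part of this test, so that choice favours passing it. Over all 22018 features 116 (0.527%) passed. The values below are the log2 fold change of mutant over WT in T3 minus that in vehicle, and no explanation was tested. Among T3 signalling and other genes measured in the study they were -1.6 for thrb, -2.3 for thibz (XLOC_028082), -0.63 for nr3c2, -1.64 for mmp11, -1.56 for igf2, -0.55 for pim3 and -0.82 for traf3. For pim3 and traf3 the mutant was higher in vehicle and no difference passed in T3. Among growth and TGF-beta genes the values were -0.72 for irs1, -1.87 for inhbb, -0.9 for pmepa1 and -1.23 for fstl3, and among matrix genes -0.64 for olfml2b and -1.5 for frem3. Chaperone genes gave -0.76 for dnaja1, -0.78 for ahsa1 and -0.5 for dnajb1. Neural and chromatin genes gave -1.47 for nfic, -1.06 for neurod2, -0.87 for neurod6, -1.23 for brs3, -0.85 for rcor2 and -0.43 for prom1. The values were -9.66 for pla2g2e and -3.21 for ca12. Among features with no symbol the values were -7.09 for XLOC_030373 and -0.98 for XLOC_039985, and the difference went the other way at 1.65 for XLOC_029072 and 1.13 for XLOC_035879.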

How the results depend on the processing

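The count of features called in T3 was 1515 (700 lower, 815 higher). It was 2654 (1253 and 1401) with DESeq2, 3134 (1634 and 1500) in a fit of the 6 T3 libraries alone and 573 (303 and 270) with a log2 fold change over 0.5 in size. With 1 library left out it was 293 to 2655, with 166 to 1291 lower and 127 to 1364 higher. DESeq2 kept 1480 of the 1515 and limma-voom 1374. The vehicle count of 127 was 525 with DESeq2, 28 in a fit of the 6 vehicle libraries alone, 84 with a log2 fold change over 0.5 in size and 33 to 504 with 1 library left out. The count of 116 for the difference between T3 and vehicle was 655 with DESeq2 and 38 to 129 with 1 library left out. Same-numbered WT T3 and mutant T3 libraries did not deviate together (r = -0.278, -0.093 and -0.187), so a pairing by replicate number was not shown. With 3 libraries a group these values cannot exclude a pairing. With the replicate block 1070 features were called in T3, 504 lower and 566 higher, 76 in vehicle and 75 for the difference. Over all alternatives for the named genes the direction and the side of the threshold stayed in 1983 fits, the call was lost in 218 and gained in 73. The log2 fold change of pim3, 0.01, was -0.0391 to 0.0554 with 1 library left out. It changed sign to -0.0011 at equal depth, -0.0031 without WT T3 replicate 3, and -0.0391 and -0.0047 without mutant T3 replicate 1 or 2. The cause of these changes was not tested.

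With 3 pools a group, most calls of 0.5 or less in size on the log2 scale were lost in at least 1 of the 6 fits that left out a T3 library. Of 942 calls of that size 71 held in all 6 fits, against 53 of 122 over 1. Symbols were at hand mainly for genes that were higher in WT T3 than in WT vehicle (92.5% of 1504), so most features higher in mutant T3 are described by count.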
